A study of Mus musculus with 16 samples.

Results

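The pooled amyloid effect was measured in the hippocampus of 5-month-old mice by RNA sequencing of polyadenylated transcripts. Carriers of the 5xFAD transgenes were compared with non-carriers in 16 libraries, which is every library of the series: 8 carriers (4 5xFAD and 4 5xFAD-Dp16) against 8 non-carriers (4 wild-type C57BL/6J and 4 Dp16). 5xFAD mice carry transgenes, including human APP, that hold mutations of inherited Alzheimer disease and are expressed from the Thy1 promoter, which is active in neurons. Dp16 mice carry a duplicated segment of chromosome 16 that includes the mouse App gene, and 5xFAD-Dp16 mice carry both, so 4 carrier and 4 non-carrier libraries shared the duplication. The duplication and the sex of the mouse were terms of the model, because 6 carriers and 4 non-carriers were male and the 4 libraries with both alterations came from males alone. Whether each library came from its own mouse is not stated in the labels, so each p rests on the spread among libraries, which may be technical.

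In 5xFAD mice, amyloid peptides form plaques from an early age, and microglia, the resident macrophages of the brain, gather around them and switch on genes for phagocytosis, lysosomal digestion, lipid handling and antigen presentation. Astrocytes near plaques raise Gfap, and interferon-stimulated genes can rise in some of the glia. RNA of whole tissue averages over neurons, glia and vessels. In such bulk tissue, fewer cells of a type and less RNA per cell cannot be told apart.

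Carrier libraries held 15838097 to 25037769 counts and non-carrier libraries 17368777 to 24089861. The hippocampal markers Prox1, C1ql2, Wfs1, Fibcd1 and Grik4 were present at 32.1 counts-per-million (CPM) or more in every library. The hippocampal marker Iyd was at 0.27 to 5.33 CPM. Libraries differed in how much RNA of neighbouring brain regions they held. A score over midbrain and hypothalamus genes (the mean over the genes of log2 CPM minus the mean over all libraries) was above 1 in wild-type replicate 4 (2.40), 5xFAD-Dp16 replicate 3 (1.89) and 5xFAD replicate 2 (2.55). Of these, wild-type replicate 4 was also the highest of all libraries in a score over striatum genes (2.01). It held the midbrain gene Slc6a3 at 0.77 CPM, against 14.8 CPM in 5xFAD-Dp16 replicate 3 and 143 CPM in 5xFAD replicate 2. A score over thalamus genes was above 1 in 5xFAD replicate 4 (2.1). These 4 libraries, 1 from the non-carriers and 3 from the carriers, were the lowest in CA1 and postsynaptic genes. Over all 16 libraries the median log2 difference was 1.49 in midbrain and 0.76 in thalamus genes, and over the other 12 libraries 0.09 and 0.05. For choroid plexus genes the medians were 0.49 and 1.33. Results that turn on the 4 libraries are given with all 16 and with the remaining 12 (7 non-carriers and 5 carriers), a choice made after seeing the data. The defining blood marker Hba-a1 was at 6.52 to 19.5 CPM, and Cd3e of T cells and Cd79a of B cells stayed below 1 CPM in every library.

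Mouse Thy1, whose promoter drives the transgenes, separated the groups. It was at 761, 808 and 929 CPM (lowest, median, highest) in non-carriers and at 1639, 2237 and 3083 CPM in carriers, and rose 2.66-fold (log2 1.41 ± 0.11 SE, edgeR adjusted p = 2.8e-07). The lowest carrier was above the highest non-carrier. Whether the Thy1 reads came from the mouse gene or from the transgenes was not tested. Counts of the mouse gene App did not pass (log2 -0.14, edgeR adjusted p = 0.356), and they give no separate measure of the human transgene. App followed the duplication: its mean was 3139 CPM in Dp16 and 2961 CPM in the carriers with the duplication, against 2033 CPM in wild-type and 1827 CPM in the carriers without it (n = 4 each).

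Carriers differed from non-carriers in 458 of 16684 tested genes (2.75%) at an edgeR adjusted p below 0.05, with 434 higher (2.6%) and 24 lower (0.144%). The rises reached 231-fold (Cst7, a cystatin of plaque-associated microglia, from a level of 0 to 0.39 CPM in non-carriers), and 47 genes rose 4-fold or more. The falls were small: 22 of the 24 lower genes fell by less than 1.5-fold, their median was 1.27-fold, and the single fall above 2-fold was of an unnamed clone gene at 0.69 CPM. The rises had a median of 1.85-fold. Below the level that passed, the lower side was fuller: at an unadjusted p below 0.05 there were 1094 lower genes (6.56%) and 1656 higher genes (9.93%), against 417.1 expected in each direction with no effect. Omitting 1 library moved the count of 1094 to 635 (wild-type replicate 1), 656 (5xFAD-Dp16 replicate 3), 667 (wild-type replicate 3), 1825 (wild-type replicate 4) or 1849 (5xFAD replicate 1). With midbrain and choroid plexus scores as covariates it was 498, and in males only it was 1877. Over all tested genes the median log2 difference was 0.02.

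**Figure D1:**
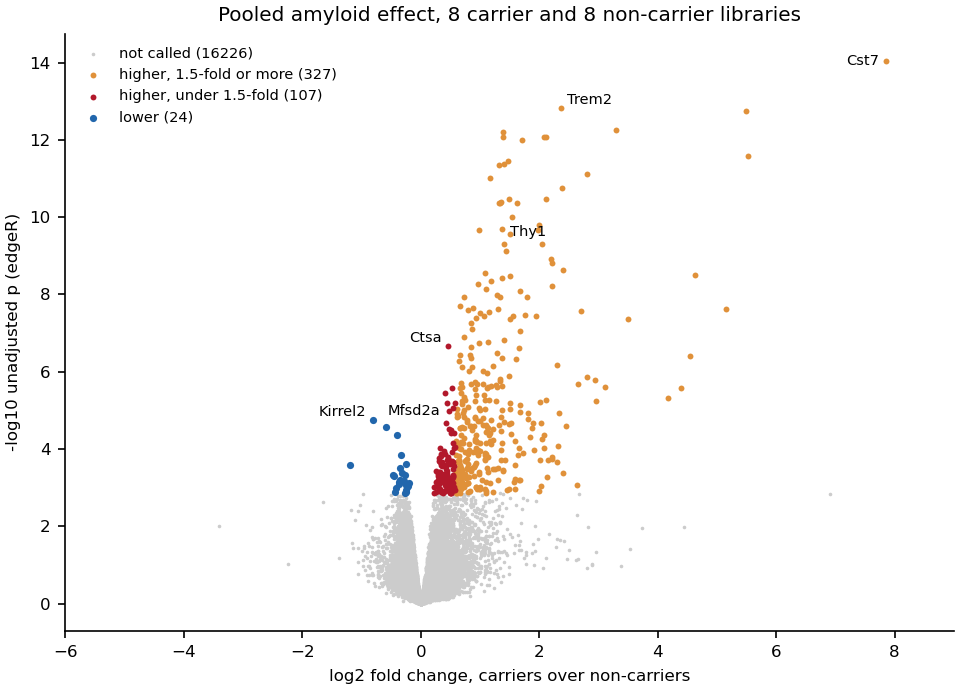
Each point is 1 of the 16684 tested genes, with the log2 fold change of carriers over non-carriers on the x axis and -log10 of the unadjusted edgeR p on the y axis. The 24 lower genes (blue) and the 107 genes that rose by less than 1.5-fold (red) lie close to 0, whereas the 327 genes that rose by 1.5-fold or more (orange) reach a log2 of 7.85 at Cst7.

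Pooling resolved changes that 4 against 4 did not. The median standard error of a log2 difference was 0.128 over the pooled groups, 0.177 for 5xFAD against wild-type and 0.191 for 5xFAD-Dp16 against Dp16. The smallest fold that passed was 1.15 pooled, 1.34 in the first and 1.38 in the second of these comparisons. 5xFAD against wild-type called 162 genes (0.971%; 161 higher and 1 lower), and 5xFAD-Dp16 against Dp16 called 141 (0.845%; 138 higher and 3 lower). Of the 458 pooled calls, 265 were called by neither, and these held 242 higher and 23 lower genes. Changes under 1.5-fold numbered 129 in the pooled comparison, 4 in 5xFAD against wild-type and 7 in 5xFAD-Dp16 against Dp16. The 3 comparisons share libraries, so their calls are not independent of each other.

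Among the falls, the adhesion gene Kirrel2, the vessel transporter gene Mfsd2a, the RNA-binding gene Nanos1 and the Golgi enzyme gene B4galt3 were called whichever of the 16 libraries was left out. Of the 21 named lower genes, Kirrel2 and Mfsd2a alone were also called in every alternative setting. All 24 lower genes had a negative sign in 5xFAD against wild-type and in 5xFAD-Dp16 against Dp16, although pooling favours such genes and the sign is in part a product of the selection. In 21 of the 24, all 8 carriers lay below the median of the non-carriers of their own duplication background, and in the other 3, 7 of 8 did. These genes were selected on the same values, so this count too is in part a product of the selection. The groups did not overlap for 2 lower genes, Mfsd2a and Nanos1, and for 158 higher genes, where 0.144% and 2.6% of tested genes were called. Over all tested genes the groups did not overlap for 163 (0.977%), with the carriers lower in 3.

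Kirrel2 encodes an adhesion molecule of the immunoglobulin superfamily (GRCm38 chr7:30447534-30457690, minus strand). It was at 5.57, 9.90 and 13.6 CPM (lowest, median, highest) in non-carriers and at 3.40, 5.88 and 7.87 CPM in carriers. All carriers were below the non-carrier median, and the groups overlapped through wild-type replicates 2 and 4, at 7.46 and 5.57 CPM. Kirrel2 fell 1.75-fold (log2 -0.81 ± 0.14 SE, edgeR adjusted p = 0.00192), by -0.76 in 5xFAD against wild-type and by -0.86 in 5xFAD-Dp16 against Dp16, neither of which passed alone (adjusted p = 0.106 and 0.0749). With 12 libraries the log2 difference was -0.72 (adjusted p = 0.000685). Its neighbours, chosen after their values were seen, did not pass: Nphs1 was at a log2 of 0.06 (adjusted p = 0.918) and Aplp1 at -0.20 (adjusted p = 0.211).

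Mfsd2a encodes the transporter that carries lysophosphatidylcholine with omega-3 fatty acids across the endothelium of brain vessels and keeps transcytosis at the blood-brain barrier low (chr4:122946850-122961188, minus strand). It was at 17.8, 19.4 and 24.9 CPM in non-carriers and at 9.44, 13.8 and 16.4 CPM in carriers, with no overlap. The lowest value was that of 5xFAD replicate 3, and the Dp16 libraries, at 19.9 to 24.9 CPM, were above the wild-type libraries, at 17.8 to 18.8 CPM. Mfsd2a fell 1.5-fold (log2 -0.58 ± 0.10 SE, edgeR adjusted p = 0.00255), and the difference was -0.67 with 12 libraries (adjusted p = 0.00197). It was the 1 called gene among 17 tested endothelial genes, where 2.75% of all tested genes were called. The median log2 of the 17 was -0.03, with 10 of them negative. That median changed sign when 5xFAD replicate 1 or 5xFAD replicate 4 was left out. Over 12 libraries 12 of the 17 were negative, and Slc2a1 fell along with Mfsd2a, where 0.314% of all tested genes fell.

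The sequences upstream of the 2 genes with the most stable falls are shown because these genes share the direction and none of the 4 motifs searched. They are the 120 bases before the RefSeq start (build GRCm38.p6), read on the strand of the gene, at chr7:30457516-30457635 for Kirrel2 and chr4:122961189-122961308 for Mfsd2a.
Kirrel2: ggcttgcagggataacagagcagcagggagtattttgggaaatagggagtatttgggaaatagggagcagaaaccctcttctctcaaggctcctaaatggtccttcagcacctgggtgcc
Mfsd2a: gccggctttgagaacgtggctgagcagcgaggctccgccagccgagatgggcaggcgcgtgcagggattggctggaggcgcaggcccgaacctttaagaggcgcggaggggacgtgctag
Of the 24 lower genes, 17 had such a window of 250 bases. The core of the PU.1 element (GAGGAAGT, both strands) and the interferon-stimulated response element were found in 0 of the 17, against 2.63% and 3.03% of the 12232 tested genes with a window. The full cyclic AMP response element (TGACGTCA, which reads the same on both strands) was found in 1 of the 17, B4galt3, and in 2.91% of all windows. In B4galt3 it lies directly before the start (plus strand, chr1:171270288-171270327), with the element in capitals.
B4galt3: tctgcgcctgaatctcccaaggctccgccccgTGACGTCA
The absence of a match says only that these letters are not in these windows.

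Nanos1, a zinc finger protein that binds RNA and represses translation (chr19:60755987-60759914), was at 27.2, 30.2 and 32.5 CPM in non-carriers and at 19.8, 23.0 and 26.9 CPM in carriers. The groups did not overlap, the difference was 1.31-fold (log2 -0.39 ± 0.07 SE, edgeR adjusted p = 0.00368), and the call ended in males only (adjusted p = 0.104). B4galt3, a galactosyltransferase of the Golgi (chr1:171270328-171276896), was at 35.0, 43.0 and 46.0 CPM in non-carriers and at 26.7, 35.3 and 39.9 CPM in carriers. It fell 1.27-fold (log2 -0.34 ± 0.07 SE, edgeR adjusted p = 0.00948). Wild-type replicates 2 and 4, at 38.4 and 35.0 CPM, reached into the carriers' range. The call ended in males only (adjusted p = 0.114) and on omitting the 3 libraries whose midbrain score was above 1 (adjusted p = 0.0511). B4galt3 overlaps Ppox on the other strand, and since the strand setting of the counting is not given, reads of the pair may be mixed.

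The lower genes of metabolism and hormone binding included Slc2a3 and Crym. Slc2a3, the main glucose transporter of neurons, was at 105, 121 and 129 CPM in non-carriers and at 82.0, 99.4 and 107 CPM in carriers. Wild-type replicate 4 was the 1 non-carrier inside the carriers' range, and Slc2a3 fell 1.24-fold (log2 -0.31 ± 0.07 SE, edgeR adjusted p = 0.0222). Crym, a cytosolic protein that binds thyroid hormone, was at 118, 141 and 171 CPM in non-carriers and at 97.7, 117 and 139 CPM in carriers, and fell 1.28-fold (log2 -0.35 ± 0.08 SE, edgeR adjusted p = 0.0174). The Crym call ended without wild-type replicate 1 (adjusted p = 0.0714). The Slc2a3 call ended without wild-type replicate 1 or 3, Dp16 replicate 2 or 3, or 5xFAD-Dp16 replicate 4 (adjusted p up to 0.0768). Both were called with 12 libraries (log2 -0.29 for each). Entpd6, of a family of enzymes that split nucleoside diphosphates and triphosphates, fell 1.19-fold (edgeR adjusted p = 0.0144), with all carriers below the non-carrier median and the call lost without wild-type replicate 1 (adjusted p = 0.0512).

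Several lower genes act in the nucleus. Rbm12, an RNA-binding protein, was at 8.60, 9.61 and 12.9 CPM in non-carriers and at 6.53, 7.40 and 9.25 CPM in carriers and fell 1.38-fold (log2 -0.47 ± 0.11 SE, edgeR adjusted p = 0.0239). It was the 1 gene of the 24 that a comparison of 4 against 4 also called (log2 -0.68 in 5xFAD-Dp16 against Dp16, adjusted p = 0.0403). The 2 highest carriers were 5xFAD replicates 2 and 4, which were also high in midbrain or thalamus genes, and with 12 libraries the difference was -0.57 (adjusted p = 0.0057). Its call ended without wild-type replicate 3, Dp16 replicate 2 or 3, or 5xFAD-Dp16 replicate 3 or 4 (adjusted p up to 0.0864), and it shares its locus with Cpne1 on the same strand. H1f10, a linker histone (1.22-fold, edgeR adjusted p = 0.0309), Cbx7, a subunit of Polycomb complexes (1.16-fold, adjusted p = 0.0379), Foxk2, a forkhead transcription factor (1.19-fold, adjusted p = 0.0446), and Klf10, a zinc finger transcription factor induced by TGF-beta (1.35-fold, adjusted p = 0.0481), fell as well. Nr1d1, the nuclear receptor REV-ERB alpha that represses clock genes, fell 1.2-fold and passed narrowly (adjusted p = 0.0495). Each of these 5 calls ended without 8 to 13 of the 16 libraries, and Nr1d1 overlaps Thra on the other strand.

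The remaining named lower genes were Tlnrd1, an actin-bundling relative of talin (1.2-fold), Fjx1, a relative of the Golgi kinase four-jointed (1.27-fold), Kcnf1, a modulatory subunit of voltage-gated potassium channels (1.34-fold), Reep2, which shapes the endoplasmic reticulum (1.17-fold), Asb6 and Fbxo10, substrate adaptors of ubiquitin ligases (1.19-fold and 1.18-fold), Urgcp (1.15-fold) and Fam43b (1.29-fold). Their edgeR adjusted p ran from 0.0231 (Tlnrd1) to 0.049 (Fbxo10), and each call ended without 5 to 13 of the 16 libraries. Entpd6, H1f10, Urgcp, Fbxo10, Cbx7 and Fam43b overlap an annotated gene on the other strand, as B4galt3 does. H1f10, Urgcp (with Mrps24) and Slc2a3 each overlap 1 on their own strand, so the counts of all these genes are uncertain. Kcnf1 was at 58.3, 77.3 and 96.2 CPM in non-carriers and at 42.1, 60.8 and 69.9 CPM in carriers. The 24 lower genes were well covered: their median was 53.6 CPM in non-carriers, against 4.63 for the higher genes and 16.3 over all tested genes. These are counts not scaled by gene length, so they describe read support and not relative expression. Of the tested genes, 133 had a fitted fall of 1.5-fold or more, with a median of 0.75 CPM in non-carriers.

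**Figure D2:**
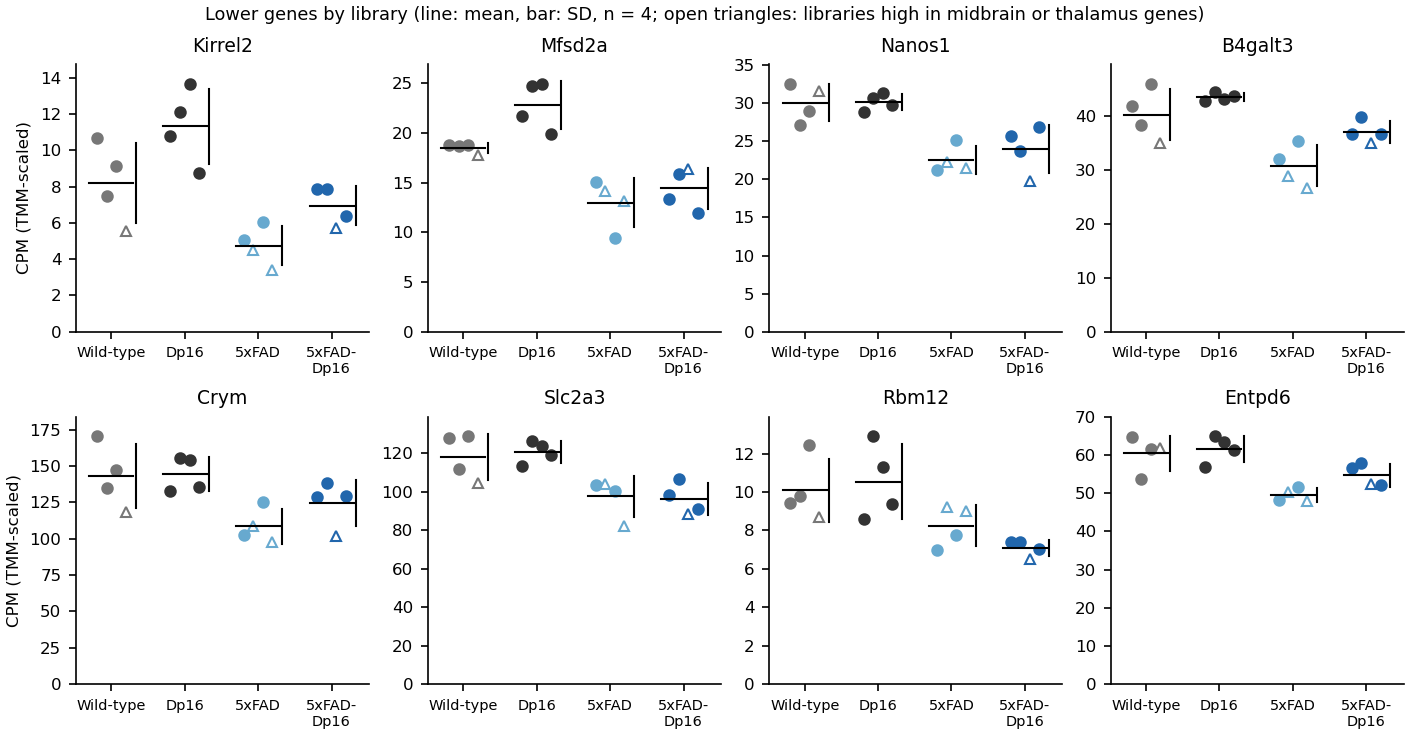
CPM of 8 lower genes (y axis) by genotype (x axis), 1 point per library, with the mean as a line and the SD as a bar (n = 4). In each gene both carrier groups sit below both non-carrier groups on average, and the open triangles mark the 4 libraries high in midbrain or thalamus genes.

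The amyloid effect was read in each duplication background on its own, from fits that share no library. Both fits held a sex term. Since all carriers with the duplication were male, their fit sets them against the male Dp16 libraries alone, replicates 2 and 3. Those libraries had choroid plexus scores of -2.75 and -2.61, and the carriers with the duplication had scores of -1.73 to 2.04. The part of choroid plexus content in that fit was not tested. In the fit of the 8 libraries without the duplication, 175 genes were lower at an unadjusted p below 0.05. Of these, 148 (84.6%) were also lower in the libraries with the duplication, where 47.2% of all genes were lower. Their median log2 was -0.39 in the fit that chose them and -0.17 in the other. In the reverse direction, 327 of 421 genes (77.7%) were lower in the second background, with medians of -0.40 and -0.13. Of the genes chosen as higher, 633 of 694 (91.2%) and 985 of 1238 (79.6%) kept the sign, where 52.8% of all genes were higher in the other background. Adjusted over all genes, these separate fits called 0 lower genes without the duplication and 12 with it. The difference between the 2 amyloid effects was called for 0 genes by edgeR (0%), with 332 genes at an unadjusted p below 0.05 where 834.2 would be expected, and 0 by DESeq2. None of the 24 lower genes had an unadjusted p below 0.05 for that difference, where 332 of the 16684 tested genes did. The pooled fit that chose the 24 favours equal effects in the 2 backgrounds, so their count of 0 cannot speak for a shared effect. The smallest p for the difference belonged to Cfap100 (log2 0.87 in 5xFAD against wild-type and -0.52 in 5xFAD-Dp16 against Dp16), Rbm41 (0.77 and -0.38), Frem3 (-1.60 and 0.30) and Rhbdl2 (0.08 and 2.25), and their adjusted p was 0.9997.

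**Figure D3:**
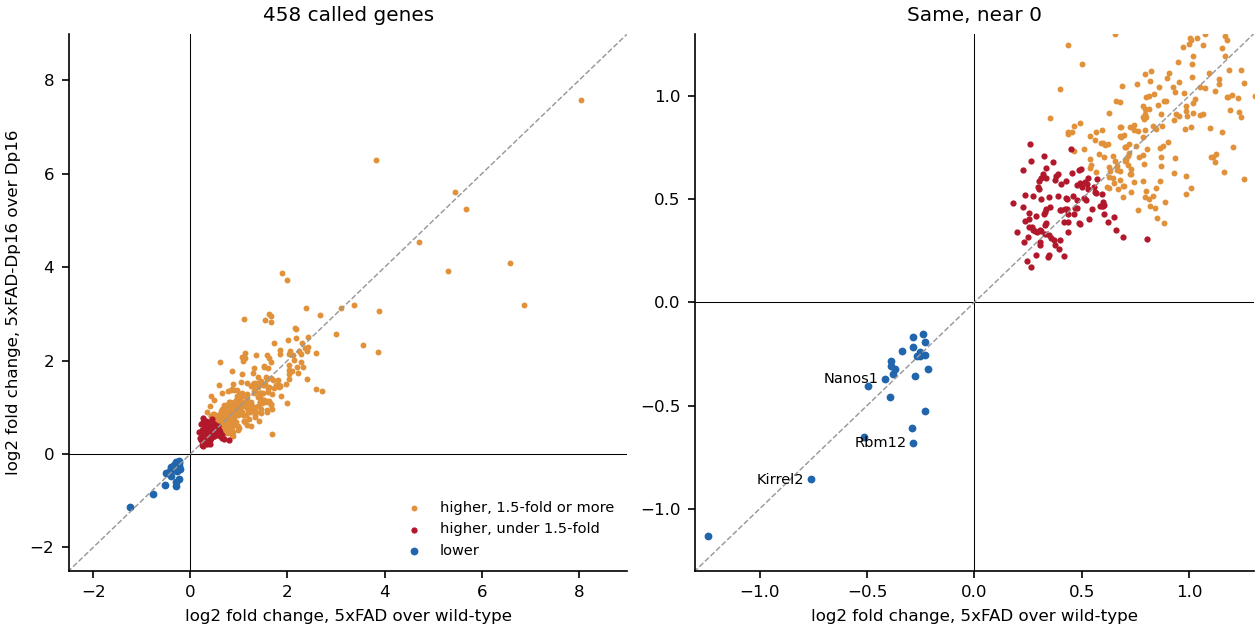
Log2 fold changes of the 458 pooled calls in 5xFAD over wild-type (x axis) and in 5xFAD-Dp16 over Dp16 (y axis), whole on the left and near 0 on the right, with the line of equal effects dashed. The 24 lower genes (blue) all lie to the lower left of 0 and the 107 small rises (red) in the upper right.

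The number of falls depended on how tissue content was treated. The 12 libraries left without the 4 high in midbrain or thalamus genes gave 54 lower (0.314%) and 500 higher genes (2.91%). Omitting only the 3 libraries whose midbrain score was above 1 gave 21 lower genes, with 7 of the 24 of the full set still called. Midbrain, thalamus and choroid plexus scores as covariates gave 22, with 9 of the 24 still called. Midbrain and choroid plexus scores gave 10, with 6 of the 24 still called. Over the 12 libraries 11 of the 24 were called again, among them Kirrel2, Mfsd2a, Nanos1, B4galt3, Crym, Slc2a3 and Rbm12. Of the 54, 53 had a negative sign over 16 libraries. The genes Slc2a1, Hif3a, Grm2, Gjb6 and Hif1a were chosen after their values were seen. Slc2a1, the glucose transporter of brain endothelium and astrocytes, was at 93.9, 149 and 194 CPM in non-carriers and at 81.1, 113 and 133 CPM in carriers. It did not pass over 16 libraries (log2 -0.36, edgeR adjusted p = 0.0896) and passed over 12 (log2 -0.48, adjusted p = 0.0175). Wild-type replicate 1 was the lowest non-carrier, and the Dp16 mean of 172 CPM was above the wild-type mean of 126. Hif3a, a hypoxia-inducible factor subunit that opposes the activating subunits, was at a log2 of -0.97 (adjusted p = 0.0514) over 16 libraries and -1.25 (adjusted p = 0.0108) over 12. Grm2, a presynaptic glutamate receptor, was at -0.43 (adjusted p = 0.22) and -0.38 (adjusted p = 0.00345), and Gjb6, an astrocyte connexin, at -0.16 (adjusted p = 0.523) and -0.36 (adjusted p = 0.00387). Hif1a, the activating partner of the hypoxia response, rose 1.17-fold over 16 libraries (edgeR adjusted p = 0.0393), a call lost when any 1 of 13 libraries was left out and over the 12 (adjusted p = 0.0516).

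Genes that respond to glucocorticoid hormone were mostly lower in sign. Of 20 tested, 19 had a negative sign, where 45.4% of all tested genes did, and 0 passed over 16 libraries. At an unadjusted p below 0.05, 7 were lower, where 6.56% of all tested genes were, and the median log2 was -0.29. With midbrain and choroid plexus scores as covariates the median was -0.15. In 5xFAD against wild-type the median was -0.01 and in 5xFAD-Dp16 against Dp16 it was -0.55, a difference that was not tested for the list. Klf15, a target of the receptor, passed in 5xFAD-Dp16 against Dp16 (log2 -0.57, adjusted p = 0.0206). Over 12 libraries the median was -0.30 and 4 members fell, where 0.314% of all tested genes did: Per1 (log2 -0.30, adjusted p = 0.0499), Cdkn1a (-0.75), Klf15 (-0.41) and Tsc22d3 (-0.66). Per1, a clock gene that neuronal activity also induces, was at 90.0, 106 and 116 CPM in non-carriers and at 53.4, 80.1 and 98.5 CPM in carriers (log2 -0.40 ± 0.11 SE, edgeR adjusted p = 0.0639 over 16 libraries). Among 18 clock and clock-output genes, a set drawn up after the values were seen, 15 had a negative sign, 7 were lower at an unadjusted p below 0.05 and 1, Nr1d1, was called. Per2 (log2 -0.44, adjusted p = 0.189), Npas2 (-0.33), Hlf (-0.28), Tef (-0.25) and Cry2 (-0.25) were among the 7. Other members did not fall in this way: Nr1d2 was at 57.3 to 102 CPM in non-carriers and at 55.5 to 145 CPM in carriers. Dbp was at 37.0 to 64.2 CPM in non-carriers and at 38.8 to 57.3 CPM in carriers. The time of day of sampling is not given in the labels, and its part in these values was not tested.

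Genes of the neuronal and synaptic lists were mostly lower in sign but did not pass over 16 libraries. In the postsynaptic scaffold list 25 of 26 genes were negative (median log2 -0.28), in the excitatory neuron list 12 of 12 (-0.29), in the interneuron and neuropeptide list 25 of 28 (-0.21), in the potassium channel list 34 of 38 (-0.19), in the glutamate receptor list 24 of 27 (-0.20), in the clustered protocadherins 46 of 55 (-0.19) and in the synaptic vesicle and release list 31 of 38 (-0.15). Over all tested genes 45.4% were negative, with a median of 0.02. Each of these lists had 0 called genes over 16 libraries. The lower genes Kcnf1, a potassium channel subunit, and Slc2a3, a glucose transporter of neurons, were called but are in none of the lists. At an unadjusted p below 0.05, where 6.56% of all genes were lower, 10 of the 28 interneuron genes, 11 of the 38 potassium channels, 7 of the 23 activity-dependent immediate early genes and 5 of the 26 postsynaptic genes were lower. The medians kept their sign under RLE and upper-quartile scaling and when each library was left out.

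Some members came near to a call. Sst, the neuropeptide somatostatin of an interneuron class, was at 224, 249 and 310 CPM in non-carriers and at 161, 209 and 241 CPM in carriers (log2 -0.35 ± 0.10 SE, edgeR adjusted p = 0.065). All carriers were below the non-carrier median. Lhx6, a transcription factor of the same interneuron lineage, was at a log2 of -0.55 (adjusted p = 0.0817), and Gad1, which makes GABA, at -0.17 (adjusted p = 0.203). Kcnh3, a voltage-gated potassium channel of forebrain neurons, was at 57.1, 78.7 and 98.7 CPM in non-carriers and at 39.4, 58.6 and 73.4 CPM in carriers (log2 -0.48 ± 0.13 SE, edgeR adjusted p = 0.0685). Necab2, a neuronal calcium-binding protein, was at -0.29 (adjusted p = 0.0507), and Vgf, an activity-induced neuropeptide precursor chosen after its values were seen, at -0.37 (adjusted p = 0.0735). The scaffold genes Dlgap3 (-0.36, adjusted p = 0.23) and Dlg4 (-0.30, adjusted p = 0.23) and the kinase gene Camk2a (-0.35, adjusted p = 0.396) were further from a call.

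The neuronal values moved with tissue content. The postsynaptic score was -0.40 to -0.57 in the 4 libraries high in midbrain or thalamus genes and -0.06 to 0.36 in the other 12, and 3 of those 4 libraries were carriers. The interneuron score had another pattern. Its highest value, 0.54, was that of wild-type replicate 4, the non-carrier of the 4, and the 3 carriers were at -0.16 to -0.01. Over the 12 libraries the medians were nearer to 0: -0.14 for postsynaptic genes (24 of 26 negative), -0.14 for excitatory neuron genes (11 of 12), -0.13 for interneuron genes (24 of 28), -0.13 for potassium channels (32 of 38) and -0.07 for clustered protocadherins (40 of 57). At an unadjusted p below 0.05, where 5.8% of all genes were lower over the 12 libraries, 9 of 28 interneuron genes, 11 of 38 potassium channels, 10 of 38 synaptic vesicle genes and 4 of 26 postsynaptic genes were lower. Over the 12 libraries 0.314% of all tested genes were called lower. Called were 1 interneuron gene (Erbb4, named after its values were seen, log2 -0.24, edgeR adjusted p = 0.0428), 1 glutamate receptor gene (Grm2) and 2 activity-dependent genes. The postsynaptic, excitatory neuron, potassium channel, synaptic vesicle and protocadherin lists had 0. With midbrain, thalamus and choroid plexus scores as covariates, the postsynaptic median was -0.03 and the excitatory median -0.04. CA1 pyramidal genes had a median of -0.28 over 16 libraries, -0.19 over 12 and 0.02 with the 3 covariates. In dentate granule genes the median was -0.08 over 16 libraries and 0.00 over 12.

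**Figure D4:**
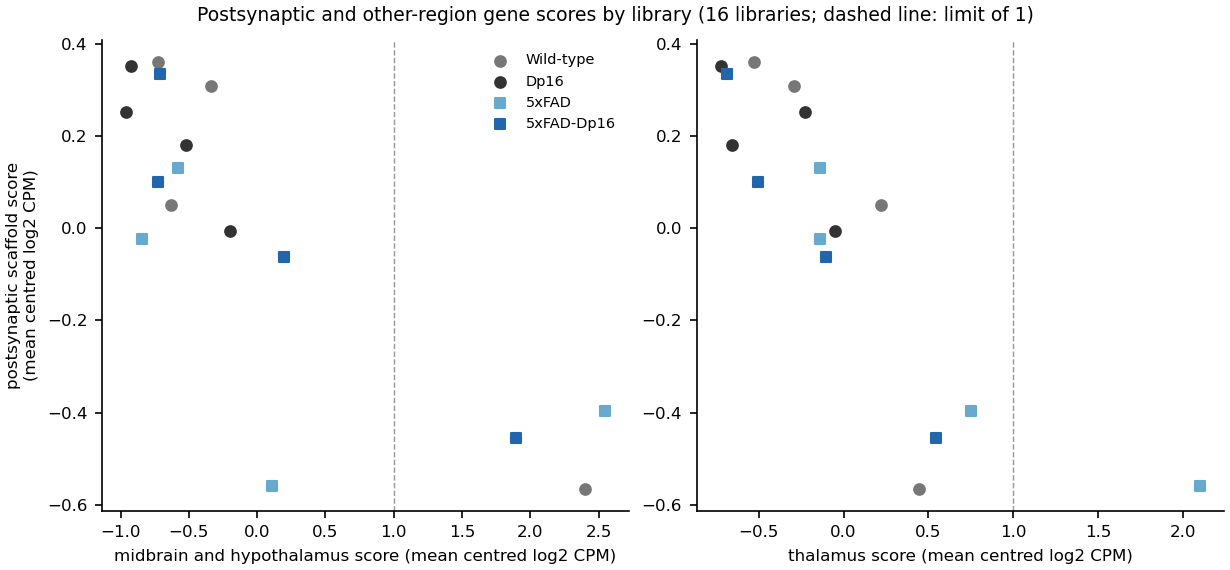
Postsynaptic scaffold score (y axis) against the midbrain and hypothalamus score (left) and the thalamus score (right) for the 16 libraries, all in mean centred log2 CPM, with non-carriers as circles and carriers as squares. The 4 libraries past the dashed limit of 1 on either x axis have postsynaptic scores of -0.40 or less.

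**Figure D5:**
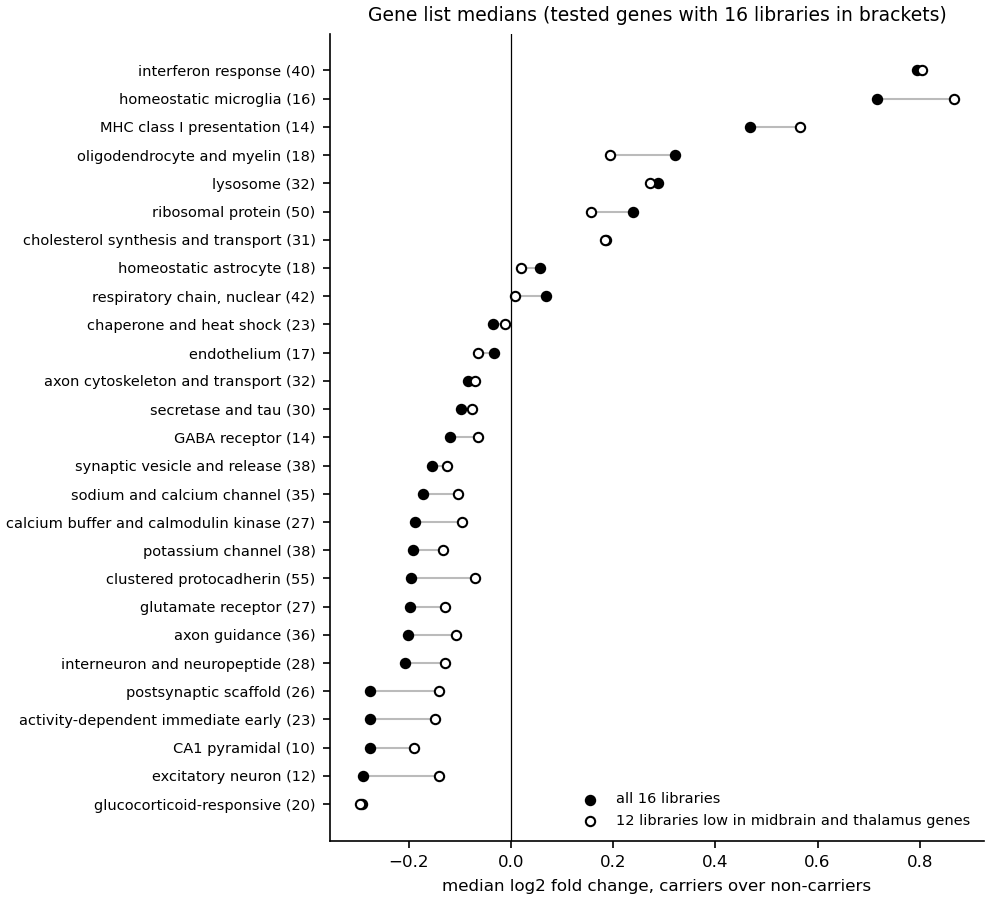
Median log2 fold change (x axis) of selected gene lists, with the number of tested genes in brackets, over all 16 libraries (filled) and over the 12 libraries low in midbrain and thalamus genes (open). The neuronal medians shown lie nearer to 0 over 12 libraries (postsynaptic scaffold -0.28 and -0.14), while the glucocorticoid-responsive list (-0.29 and -0.30) and the cholesterol list (0.19 in both) are close to equal in these 2 sets of libraries. With midbrain and choroid plexus scores as covariates the glucocorticoid-responsive median was -0.15.

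Small rises outnumbered the falls. In all, 107 genes rose by less than 1.5-fold, with a median of 1.36-fold. Of these, 91 were called in neither comparison of 4 against 4, and in 10 of the 107 the groups did not overlap, against 0.977% of all tested genes. Among the 12 with the smallest p were Ctsa, Plxdc2, Ctsb, Myo9b, P2ry12, Tgfbr1, Lgmn, Tmem176b, Rasgrp3, Creg1 and Rreb1. All 12 were called whichever library was left out, 8 of them lost the call in males only, where 10 libraries remained, and Tmem176b also lost it with no sex term (adjusted p = 0.0751).

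Several of the 12 are lysosomal. Ctsa, a protective protein and carboxypeptidase of lysosomes, was at 89.1, 96.9 and 101 CPM in non-carriers and at 111, 132 and 142 CPM in carriers. The groups did not overlap, and Ctsa rose 1.38-fold (log2 0.46 ± 0.06 SE, edgeR adjusted p = 5.08e-05). Ctsb, a cysteine protease, was at 522, 547 and 620 CPM in non-carriers and at 672, 716 and 814 CPM in carriers, also without overlap (1.33-fold, edgeR adjusted p = 0.000539). Ctsb overlaps Fdft1 and Ctsa overlaps Pltp and Neurl2, each on the other strand. Lgmn, the asparaginyl endopeptidase, rose 1.4-fold (adjusted p = 0.00122), Creg1 1.42-fold (adjusted p = 0.00285) and Lamp2, a lysosomal membrane protein chosen after its values were seen, 1.35-fold (adjusted p = 0.0153, lost without wild-type replicate 1 or Dp16 replicate 2, up to 0.0514). Of 32 tested lysosome genes, 15 rose and 0 fell, where 2.6% of all tested genes rose and 0.144% fell. Of these 15, 2 were called in neither comparison of 4 against 4, and the list's median log2 was 0.29. The leading rises were larger: Ctss (2.77-fold), Ctsd (2.49-fold) and Ctsz (2.52-fold).

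Microglial surface genes rose by different amounts. P2ry12, the purinergic receptor of resting microglia, was at 32.6, 35.2 and 43.3 CPM in non-carriers and at 42.2, 53.7 and 72.6 CPM in carriers. The groups overlapped in 5xFAD-Dp16 replicate 4 and wild-type replicate 4, and P2ry12 rose 1.5-fold (log2 0.58 ± 0.09 SE, edgeR adjusted p = 0.000831). Tgfbr1, a receptor through which TGF-beta maintains microglia, rose 1.46-fold (adjusted p = 0.00109), and Siglech and Gpr34, of the same resting set, 1.79-fold and 2.48-fold. Of 16 homeostatic microglia genes, 11 rose and 0 fell (median log2 0.72), where 2.6% of all tested genes rose and 0.144% fell. Of 28 plaque-associated microglia genes, 21 rose and 0 fell (median 1.04), with Trem2 at 5.15-fold. Also among the small rises were Myo9b, an unconventional myosin (1.36-fold), Rasgrp3, an activator of Ras (1.4-fold), and Plxdc2 (1.44-fold). The stress regulator Nfe2l2 (1.27-fold, adjusted p = 0.0233), the ferritin light chain gene Ftl1 (1.26-fold, adjusted p = 0.01) and the tumour necrosis factor receptor Tnfrsf1a (1.37-fold, adjusted p = 0.033), all chosen after their values were seen, rose too. The Nfe2l2 call ended without wild-type replicate 1 or 5xFAD replicate 2 (adjusted p up to 0.0856), and the Tnfrsf1a call when any 1 of 10 libraries was left out (up to 0.114).

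Many interferon-stimulated genes rose. Of 40 tested, 25 rose and 0 fell (median log2 0.79), where 2.6% of all tested genes rose. Of the 25, 17 were called in neither comparison of 4 against 4, as were 242 of all 434 higher genes. Irf9, a transcription factor of the interferon response, was at 7.16, 7.39 and 10.5 CPM in non-carriers and at 10.5, 12.4 and 17.9 CPM in carriers. The highest non-carrier was just above the lowest carrier, and Irf9 rose 1.65-fold (log2 0.72 ± 0.12 SE, edgeR adjusted p = 0.00167). Also higher were Parp9 (1.71-fold, adjusted p = 0.00205), Slfn8 (3.19-fold) and Lgals3bp (2.33-fold). The receptor subunit Ifnar2 rose 1.24-fold (adjusted p = 0.0432, lost without 11 of the 16 libraries), while Ifnar1, also chosen after its values were seen, was at a log2 of -0.01 (adjusted p = 0.928). In MHC class I presentation 7 of 14 genes rose and 0 fell (median log2 0.47), from B2m (1.98-fold) and H2-D1 (1.96-fold) to the peptide loading gene Tapbp (log2 0.32, adjusted p = 0.0131). The H2, Ifit and Slfn genes have close copies, and their counts are uncertain for that reason.

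Of 31 genes of cholesterol synthesis and transport, 5 rose and 0 fell, where 2.6% of all tested genes rose. In sign 26 were positive and 5 negative, where 45.4% of all tested genes were negative, and the median log2 was 0.19. None of the 5 was called in a comparison of 4 against 4. Apoe, the main lipoprotein of brain, was at 2249, 2517 and 3209 CPM in non-carriers and at 2628, 3118 and 3514 CPM in carriers and rose 1.24-fold (log2 0.31 ± 0.07 SE, edgeR adjusted p = 0.0205). Wild-type replicate 4 was the non-carrier that lay highest. Of the synthetic enzymes, Nsdhl was at 20.7, 22.1 and 25.9 CPM in non-carriers and at 25.2, 28.4 and 30.9 CPM in carriers and rose 1.23-fold (adjusted p = 0.0244), Fdps rose 1.22-fold (adjusted p = 0.0292) and Fdft1 1.26-fold (adjusted p = 0.0294). Fdft1 overlaps Ctsb on the other strand. Ctsb was itself called higher, from a mean of 554 CPM in non-carriers against 102 CPM for Fdft1, so the Fdft1 count is uncertain. Ch25h, which makes the oxysterol 25-hydroxycholesterol and is induced in activated macrophages, rose 3.3-fold (adjusted p = 0.00874) from 0.55 to 1.63 CPM on average. The Apoe call ended without wild-type replicate 3, Dp16 replicate 2 or Dp16 replicate 3 (adjusted p up to 0.0651), the Nsdhl call without 5 libraries (up to 0.0885) and the Fdps and Fdft1 calls without 8 each (up to 0.106). Over 12 libraries 9 of the 31 rose, where 2.91% of all tested genes did, and the median stayed at 0.19.

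Myelin genes were higher in sign throughout, and few passed. All 18 oligodendrocyte and myelin genes were positive (median log2 0.32), and 15 were higher at an unadjusted p below 0.05, where 9.93% of all genes were. Of the 18, 2 rose, where 2.6% of all tested genes did. They were Trf, the iron carrier of oligodendrocytes (1.42-fold, edgeR adjusted p = 0.0143), and Ugt8a, which makes the myelin lipid galactosylceramide (1.42-fold, adjusted p = 0.0359). The Trf call ended without wild-type replicate 1 or 3 (adjusted p up to 0.0583) and the Ugt8a call without 9 libraries (up to 0.101). Mbp (log2 0.35, adjusted p = 0.188) did not pass. Over 12 libraries the median was 0.19 and 4 genes rose, where 2.91% of all tested genes did. The median was thus lower without the libraries high in midbrain or thalamus genes, and the part of white matter content was not tested. All 50 ribosomal protein genes were positive (median 0.24 over 16 libraries and 0.16 over 12), with 0 called over 16.

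The astrocyte gene Gfap rose 2.57-fold (log2 1.36 ± 0.10 SE, edgeR adjusted p = 1.35e-07), and 6 of 22 reactive astrocyte genes rose and 0 fell, where 2.6% of all tested genes rose. The median log2 of the 22 was 0.18, with 6 of them negative. It was 0.24 over the 12 libraries low in midbrain and thalamus genes and 0.03 with midbrain and choroid plexus scores as covariates. Of 18 homeostatic astrocyte genes 1 rose, a count close to that background: Aqp4, the water channel of astrocyte endfeet, at 147, 180 and 249 CPM in non-carriers and 194, 226 and 378 CPM in carriers (1.36-fold, adjusted p = 0.0415). The highest carrier was 5xFAD replicate 2, and leaving out any 1 of 9 libraries ended the call (up to 0.133). The growth factor Igf1, which plaque-associated microglia make, rose 1.53-fold (adjusted p = 0.00112) without overlap of the groups. Of the 105 tested genes of the duplicated segment 4 were called, near the 2.75% of all tested genes, among them Samsn1 (4.35-fold) and Runx1 (2.6-fold), both named after their values were seen.

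Upstream windows of 4 small rises are shown for the 2 motifs whose share among all higher genes was above that of all windows. The PU.1 core was in 23 of the 326 higher genes with a window (7.06%, against 2.63% of all windows) and in 3 of the 84 that rose by less than 1.5-fold (3.57%). The interferon-stimulated response element was in 29 of 326 (8.9%, against 3.03%) and in 3 of 84 (3.57%). Among the small rises both shares were thus near those of all windows. The ETS core (CCGGAAGT), which shares letters with the PU.1 core, was in 7 of 326 (2.15%, against 5.83%). The sequences below are 60 bases upstream of the RefSeq start (GRCm38.p6, read on the gene's strand), ending 1 base before it or, in Rasgrp3, 21 bases before it. They belong to the small rises with a PU.1 core, Rhog (chr7:102250119-102250178, minus strand), Rasgrp3 (chr17:75435825-75435884, plus strand) and Ptgs1 (chr2:36230366-36230425, plus strand), and of Irgm1, an interferon-induced GTPase (chr11:48871421-48871480, minus strand). Matches are in capitals. Rhog holds the core on the opposite strand, and Irgm1 holds 2 overlapping response elements.
Rhog: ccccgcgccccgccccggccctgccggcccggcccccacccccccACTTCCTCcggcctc
Rasgrp3: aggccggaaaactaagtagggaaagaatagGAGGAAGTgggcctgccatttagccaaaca
Ptgs1: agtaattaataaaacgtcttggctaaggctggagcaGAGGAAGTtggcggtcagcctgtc
Irgm1: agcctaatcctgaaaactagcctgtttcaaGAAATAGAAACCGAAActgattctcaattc
Rasgrp3 rose 1.4-fold (edgeR adjusted p = 0.00271), Rhog, a small GTPase, 1.28-fold (adjusted p = 0.0128), Ptgs1, the cyclooxygenase of resting microglia, 1.36-fold (adjusted p = 0.0198) and Irgm1 1.44-fold (adjusted p = 0.0273). The Ptgs1 call ended without Dp16 replicate 2 or 5xFAD replicate 1 or 2 (up to 0.0603) and the Irgm1 call when any 1 of 5 libraries was left out (up to 0.0917). A match is a description of the letters and not of binding.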

How the data were processed

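Members and gene lists were chosen with earlier results of these data known. Raw read counts per gene, as deposited by the authors for 55385 genes, were used. The deposited table of RPKM values was not used here. Per the submitters' processing notes the tools were bcl2fastq, FastQC 0.11.5, HISAT2 2.1.0, SAMtools 1.5 and HTSeq 0.6.1, with build GRCm38. No source used here gives the strand setting of the counting, so overlapping, antisense and near-identical genes are uncertain.

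In R 4.3.3, edgeR 4.0.16 (TMM scaling, default low-count filter over the 4 genotypes, robust quasi-likelihood test) fitted amyloid, duplication and sex over 16 libraries of 15838097 to 25037769 counts. The 4 against 4 comparisons and their difference came from 1 model with 4 genotype terms and sex. The threshold was an adjusted p (Benjamini-Hochberg) below 0.05 over all 16684 tested genes, and every adjusted p is from edgeR unless another tool is named. CPM are TMM-scaled. Each SE is the log2 value divided by the root of its test statistic. Tissue scores used a prior count of 2. Alternatives included DESeq2 1.42.0 and limma 3.58.1 (voom). The pooled edgeR fit was tested on simulated data, and not every other step was.

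Named were App and Thy1, the called lower genes except clone names, the 12 small rises with the smallest p, the largest rises, up to 4 called members per list or its member with the smallest p, and the 4 genes with the smallest p for the difference between backgrounds. Some genes under this rule are not reported here. Genes outside this rule, picked with their values known, are marked so in the text or are Gad1, Lhx6, Dlg4, Camk2a, Mbp, Klf15, Tsc22d3, Cdkn1a, Rhog, Ptgs1, Irgm1, Fdft1 and Tapbp. Coordinates came from a GRCm38 annotation that held 55144 of the identifiers, and upstream sequences from RefSeq (GRCm38.p6). Same-numbered libraries of different genotypes did not deviate together (9 of 24 pairs had a correlation over 0.1), so the numbers were not treated as pairing.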

Additional observations from a re-analysis of the deposited data

Results flagged for a closer look

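With 8 libraries in a group, a value is singled out here when its gap to the nearest other library is more than 0.526 of the range of its group, and chance alone does this in about 1 group in 20 (90 groups were examined). Wild-type replicate 4 stood apart from the other non-carriers in Apoe (3209 CPM, next 2672), in the midbrain and hypothalamus score (2.40, next -0.20), the striatum score (2.01, next 0.29), the T and B lymphocyte score (0.91, next 0.19), the CA1 pyramidal score (-1.15, next 0.12), the CA3 and CA2 pyramidal score (-0.74, next 0.00) and the dentate granule score (-1.08, next -0.15). Among the carriers, 5xFAD replicate 2 stood apart in Klf10 (15.5 CPM, next 23.7), Aqp4 (378 CPM, next 268) and the CA3 and CA2 pyramidal score (-0.54, next -0.07). 5xFAD replicate 1 stood apart in Cst7 (67.5 CPM, next 41.4). Klf10 and Apoe are both small changes. The Klf10 fall was called over the 12 libraries low in midbrain and thalamus genes (log2 -0.35, edgeR adjusted p = 0.022), and so was the Apoe rise (log2 0.32, adjusted p = 0.00614).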

How the results depend on the processing

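All 24 lower genes kept their sign in every setting that tested them (23 of 24 were tested under the stricter low-count filter), but their number moved from 10 to 85 when 1 library was left out. It was 10 without wild-type replicate 1 or Dp16 replicate 2, 11 to 15 without wild-type replicate 2 or 3, Dp16 replicate 1 or 3, 5xFAD-Dp16 replicate 3 or 4 or 5xFAD replicate 3, 43 on omitting 5xFAD-Dp16 replicate 2, 70 on omitting wild-type replicate 4 and 85 on omitting 5xFAD replicate 1. The total ran from 328 to 582 and the higher genes from 318 to 512. The 4 against 4 counts ran from 109 to 189 (5xFAD against wild-type) and from 76 to 146 (5xFAD-Dp16 against Dp16), and the count for their difference stayed at 0. DESeq2 gave 730 calls (82.6% higher against 94.8% with edgeR, 127 lower, with all 24 among them), and 292 and 269 in the 4 against 4 comparisons. With no low-count filter the counts were 1294 (68.9% higher), 891 higher and 403 lower, then 398 and 620, and 128 for the difference. Males only (10 libraries) gave 199, 187 higher and 12 lower, then 44 and 49, with 3 of the 24 lower genes still called. An adjusted p below 0.01 left 249, 245 higher and 4 lower. Midbrain and choroid plexus scores as covariates gave 10 lower genes, with 6 of the 24 still called. Leaving out the 4 libraries high in midbrain or thalamus genes, a setting added after seeing the data, gave 54 lower. A replicate block gave 532 calls with 62 lower genes, though the numbers are not a known pairing. The cause was not tested in any of these. Depth limits low genes: the 133 fitted falls of 1.5-fold or more had a median non-carrier level of 0.75 CPM.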
